A study of Mus musculus with 12 samples.

Results

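Clotting and clot removal are run by proteases, by the cell-surface proteins that start or hold them, and by inhibitors. Of these, 9 genes are described here in the mouse aorta: Plat, Plau, Plaur, Serpine2, F3, Thbd, Tfpi, Tfpi2 and Procr. They were found as the non-control probes whose gene name in the scanner files is 1 of these symbols, which gave 12 of the 55681 probes on the array and 9 of its 34797 gene names. F3 had 2 probes, Tfpi had 3, and each of the others had 1. RNA was measured in the aorta of 12 C57BL/6J mice, with 1 array per mouse and 4 groups of 3 mice, to ask what a challenge that leads to aortic dissection does to the vessel wall and what rapamycin changes. Per the study's methods the mice were male and 11 to 14 weeks old, and a piece of aorta of 10 mm was taken.

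The DMSO group received dimethylsulfoxide alone, the vehicle of the drug. The rapamycin group received rapamycin, an inhibitor of the kinase mTOR, at 2 mg/kg/day in this vehicle. The BA+DMSO group received β-aminopropionitrile (150 mg/kg/day), which blocks collagen crosslinking, and angiotensin II (1 µg/kg/min), a pressor peptide, with vehicle. The BA+rapamycin group received the same challenge with rapamycin. The series' description gives day 3 for all samples, and all 4 groups share the vehicle. It also names the DMSO group "Pre", as do its sample titles, a word the study elsewhere uses for mice before the challenge, so how long these mice were treated is not certain. The 3 samples of a group are separate mice.

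As background, tissue factor (F3) on cells outside the blood starts coagulation when it meets factor VII, and thrombin then makes fibrin. Endothelial cells hold this back with tissue factor pathway inhibitor (Tfpi), with thrombomodulin (Thbd), which turns thrombin into an activator of protein C, and with the protein C receptor (Procr). Fibrin and matrix are cleared by plasmin, which tissue-type (Plat) and urokinase-type (Plau) plasminogen activators release from plasminogen. The urokinase receptor (Plaur) holds Plau on the cell surface, Serpine2 (protease nexin-1) blocks thrombin, urokinase and plasmin, and Tfpi2 is a relative of Tfpi that blocks plasmin.

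Each probe is a 60-base oligonucleotide, and where it lies decides what it can report. For 4 of the 12 the sequence is shown, because they cross a splice junction or because the reading of Tfpi and Tfpi2 depends on them. They are given 5′ to 3′ in lower case, with no part singled out, and on the transcript's strand. The probe of Serpine2 is placed at chr1:79793476-79796093 (mm9, minus strand) and the second probe of F3 at chr3:121434609-121435346 (mm9, plus strand). These placements span 2618 and 738 bases of genome for 60 bases of probe, so both cross sequence that is spliced out. The Tfpi probe shown lies at chr2:84284179-84284238 and the Tfpi2 probe at chr6:3915439-3915498, both on the minus strand of mm9.
Serpine2: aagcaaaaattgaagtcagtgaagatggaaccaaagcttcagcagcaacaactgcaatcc
F3: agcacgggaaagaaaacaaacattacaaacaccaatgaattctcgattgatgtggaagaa
Tfpi: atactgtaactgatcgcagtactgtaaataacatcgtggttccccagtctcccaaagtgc
Tfpi2: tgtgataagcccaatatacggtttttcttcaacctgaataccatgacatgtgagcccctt

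Every value below is the log2 of a probe's processed signal minus the 75th percentile of its array, so 0 is the level of that percentile. A difference is between group means on this log2 scale, with its standard error (SE) from 1 limma model over the 12 arrays. A gene was called at a Benjamini-Hochberg adjusted p under 0.05, adjusted over all 27801 probes tested. A probe entered the test when, in any 1 group or more, it was well above background in each of the 3 mice. Of the 9 genes, 8 passed this filter and Tfpi2 did not. Where a gene had several probes, the tested probe with the highest mean stood for it.

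Several facts about the arrays bear on these values. The 75th percentile of signal was 221 to 280 intensity units on the DMSO arrays, 257 to 337 on the rapamycin arrays, 78.1 to 246 on the BA+DMSO arrays and 74.6 to 109 on the BA+rapamycin arrays. The challenged arrays were thus dimmer, apart from BA+DMSO replicate 3 at 246, which lay within the DMSO range. All DMSO arrays lay on slide 1, all challenged arrays on slide 2, and the rapamycin arrays on both (replicate 1 on slide 1). For the challenge on vehicle, group and slide therefore cannot be told apart from these arrays alone, and the rapamycin group is the only link between the slides. The titles of 10 arrays carry a date of unstated meaning, and 3 such dates are shared between groups. DMSO replicates 2 and 3 share one with rapamycin replicates 2 and 3, DMSO replicate 1 one with BA+rapamycin replicate 3, and BA+rapamycin replicate 1 one with BA+DMSO replicate 1. With this date as a random block, an alternative chosen after seeing the data, the correlation within a date was 0.50. Arrays of BA+DMSO correlated with each other at 0.912 to 0.961 across probes, against 0.974 to 0.993 within the other groups. BA+DMSO replicate 2 stood apart from the other arrays of its group for several of the 9 genes, and results that rest on it are also given without it. In tissue, fewer cells of a type and less RNA per cell cannot be told apart.

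In the challenged aorta without rapamycin, Plau, Plaur and Procr had higher mean scaled values than on vehicle alone, and Serpine2 a lower one. Group and slide cannot be told apart in this contrast, and no call given here remained with the slide as a fixed block. The challenge (BA+DMSO minus DMSO) called 3 of the 8 tested genes higher, Plau, Plaur and Procr, and 1 lower, Serpine2. Over all 20026 gene names tested, 10.3% were called higher and 11.1% lower. The median difference of the 8 genes was 0.64, and that of all gene names was -0.02. Plat, F3, Thbd and Tfpi were not called.

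Plau had the largest difference of the 8 genes in the model without a slide term. With the slide as a fixed block Serpine2 did, at -1.77 against 1.42 for Plau. The values of Plau were -3.15, -3.87 and -3.32 on the DMSO arrays and -1.33, -1.98 and -0.61 on the BA+DMSO arrays. Every challenged array was above every DMSO array. The difference was 2.14 (SE 0.35), a 4.42-fold rise (limma, adjusted p 0.00251). Plau was a dim probe, however, and was not well above background on DMSO replicate 2. Before scaling, its signal was 31.4, 18.2 and 22.2 intensity units on the DMSO arrays and 52.6, 19.8 and 161 on the BA+DMSO arrays. Unscaled, BA+DMSO replicate 2 thus lay within the range of the DMSO arrays, and its higher scaled value came with its lower percentile. With another background correction (normexp) the difference was 1.21 (adjusted p 0.000357). Plau was placed at chr14:21662242-21662301 (mm9, plus strand).

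Plaur, the receptor that binds the Plau protein, was also called. It stood at 1.48, 1.33 and 0.53 on the DMSO arrays and at 2.94, 1.33 and 3.45 on the BA+DMSO arrays (chr7:25260569-25260628, plus strand). Replicates 1 and 3 of BA+DMSO were far above the DMSO range, while replicate 2 lay inside it. The difference was 1.46 (SE 0.46), 2.74-fold (limma, adjusted p 0.0474). The call was close to the threshold: it was lost without DMSO replicate 1, 2 or 3 (adjusted p 0.0717, 0.104 and 0.155) and without BA+DMSO replicate 1 or 3 (0.149 and 0.0943). Without BA+DMSO replicate 2 the difference was 2.08 (adjusted p 0.00173). With the title date as a random block it was 1.48 and not called (adjusted p 0.0566), while Plau, Serpine2 and Procr were.

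Plat, the other plasminogen activator, was split in the same way. Its DMSO values were 2.03, 1.32 and 1.42, and its BA+DMSO values 2.80, 1.09 and 3.14 (chr8:23892531-23892590, plus strand). The group means differed by 0.75 (SE 0.44, limma adjusted p 0.249), so no change was called. Without BA+DMSO replicate 2, the difference was 1.38 and was called (adjusted p 0.00449).

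Serpine2 was the 1 gene called lower. It was steady without challenge, at 3.82, 3.72 and 3.58 in DMSO, and scattered with it, at 1.73, 1.08 and 3.47 in BA+DMSO. All challenged values were below all DMSO values, replicate 3 only just. The difference was -1.62 (SE 0.49), a level 3.07-fold lower (limma, adjusted p 0.0400). This call was lost without DMSO replicate 1, 2 or 3 (adjusted p 0.104, 0.115 and 0.0843) and without BA+DMSO replicate 1 or 2 (0.129 and 0.0939). Without BA+DMSO replicate 3 the difference was -2.31 (adjusted p 0.000657).

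**Figure D1:**
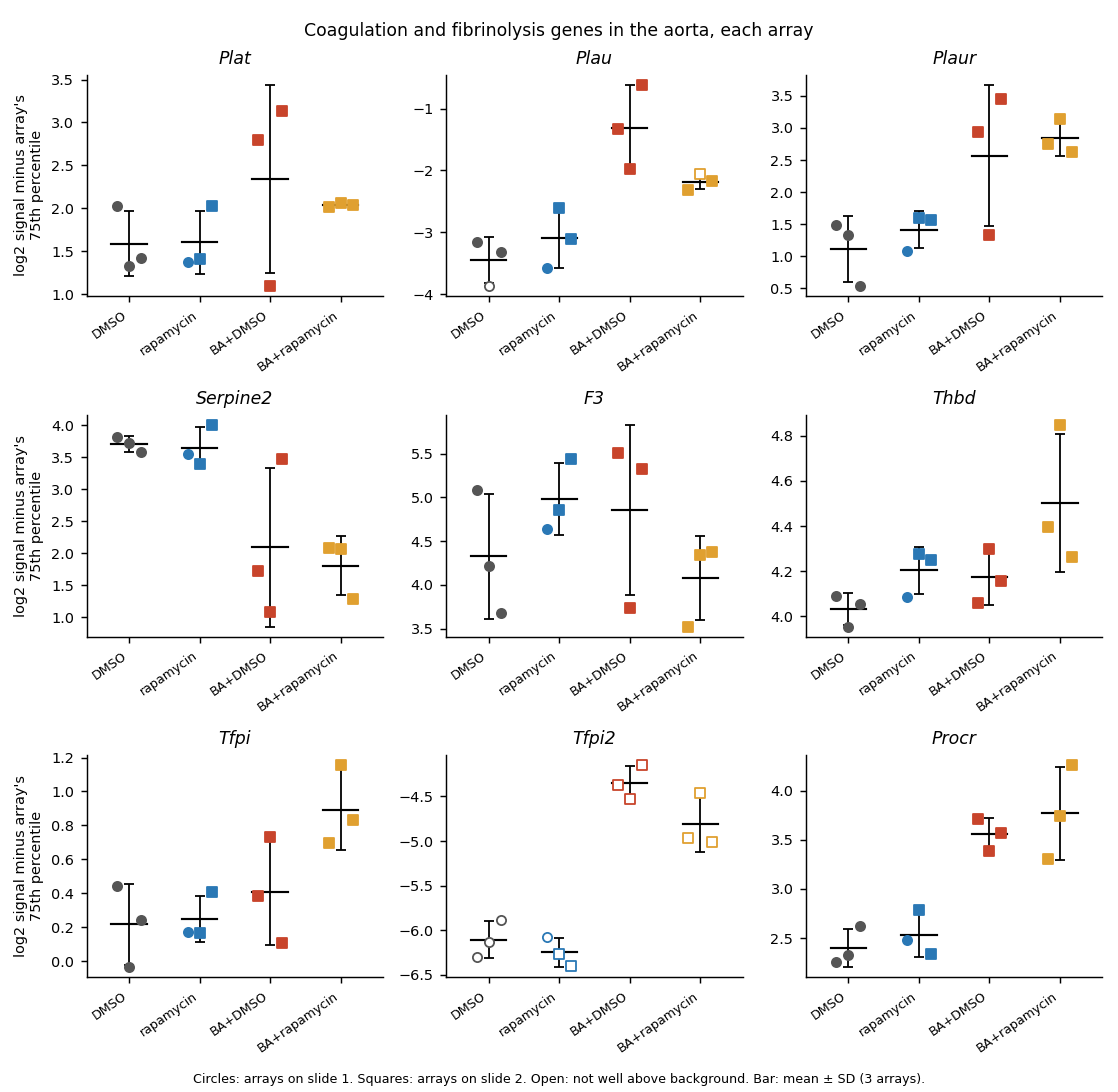
Level of each of the 9 genes on each array, as the log2 processed signal minus the array's 75th percentile, for the probe that stands for the gene. Points are arrays (circles on slide 1, squares on slide 2, open where not well above background) and bars are the group mean ± SD (n = 3); Procr and Plau lie higher on all 6 challenged arrays than on the 6 others, and Serpine2 spreads from 1.08 to 3.47 in BA+DMSO.

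Procr is the endothelial protein C receptor. Its values were 2.25, 2.33 and 2.62 in DMSO and 3.72, 3.39 and 3.57 in BA+DMSO (chr2:155580945-155581004, plus strand). The groups did not overlap, and the difference was 1.15 (SE 0.24), 2.23-fold (limma, adjusted p 0.00875). The call held when any single array of either group was left out, with adjusted p between 0.00789 and 0.0435. Before scaling, the signal of Procr was 1334, 1344 and 1363 intensity units in DMSO and 1734, 816 and 2925 in BA+DMSO. Unscaled, replicate 2 of BA+DMSO thus lay below the DMSO arrays.

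The other anticoagulant genes and tissue factor were not called. Thbd was nearly flat, at 4.09, 3.96 and 4.05 in DMSO and 4.06, 4.30 and 4.16 in BA+DMSO, with a difference of 0.14 and a 95% interval of -0.25 to 0.53. F3 stood at 5.09, 4.21 and 3.68 without challenge and at 5.51, 3.74 and 5.32 with it (chr3:121437717-121437776, plus strand), and the means differed by 0.53 (interval -0.55 to 1.61, limma adjusted p 0.469). The junction probe of F3, whose sequence is shown above, gave 0.68 (adjusted p 0.372). Leaving out BA+DMSO replicate 2 gave differences of 1.09 (adjusted p 0.0781) and 1.16 (0.111). With all arrays, the intervals of F3 include a change of more than 1 log2 unit upward and none at all.

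Tfpi2 could not be measured. Its probe was not well above background on any of the 12 arrays. Its unscaled signal was 3.34 to 3.99 intensity units on 10 arrays and 6.40 and 13.9 on BA+DMSO replicates 1 and 3, the same arrays on which Plat and Plaur were high. No fold is given. The scaled values of -6.40 to -5.89 without challenge and -5.01 to -4.15 with it are at the background of the arrays, and where the unscaled signal barely differs they follow the percentile that was subtracted.

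With the slide in the model as a fixed block, no challenge call remained among the 8 genes. The differences were 1.42 for Plau (adjusted p 0.432), 0.95 for Plaur (0.706), -1.77 for Serpine2 (0.523) and 1.07 for Procr (0.440). This fit estimates the slide from the 3 rapamycin arrays alone, and it called 0.0599% of all gene names. Within the rapamycin group, Procr was 2.48 on slide 1 and 2.79 and 2.34 on slide 2, and Serpine2 was 3.54 on slide 1 and 3.39 and 4.0 on slide 2. For both genes the slide 1 value thus lay between those of slide 2. Plau (-3.58 against -2.61 and -3.10) and Plaur (1.08 against 1.60 and 1.57) were lower on slide 1. No challenge difference can be given within 1 slide, because no slide holds both groups.

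In mice on rapamycin, the challenge again went with higher Plaur and Procr and lower Serpine2, and with a higher value at 1 of the 3 probes of Tfpi. This contrast (BA+rapamycin minus rapamycin) called 3 of the 8 genes higher and 1 lower. The background was wide, with 19.8% of gene names called higher and 22.9% lower. The median difference of the 8 genes was 0.54, against -0.07 for all gene names. The 2 challenge contrasts share no arrays, but all challenged arrays of both lay on slide 2.

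Procr rose from 2.48, 2.79 and 2.34 in rapamycin to 3.31, 3.74 and 4.26 in BA+rapamycin. The groups did not overlap. The difference was 1.23 (SE 0.24), 2.35-fold (limma, adjusted p 0.00366), and it was 1.2 (adjusted p 0.0493) on the arrays of slide 2 alone. Of the 8 genes Procr alone was called within that slide, where 11.95% of all gene names were called. Unscaled, the signal of Procr was 1433, 1874 and 1709 intensity units in rapamycin and 1082, 994 and 2064 in BA+rapamycin. The separation of the scaled values thus came with the lower percentile of the challenged arrays.

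Serpine2 fell from 3.54, 3.39 and 4.0 to 2.08, 2.06 and 1.28. Again no value overlapped. The difference was -1.84 (SE 0.49), a level 3.58-fold lower (limma, adjusted p 0.0140), and -1.89 (adjusted p 0.0812) within slide 2. The call was lost without rapamycin replicate 3 (-1.66, adjusted p 0.0567) or BA+rapamycin replicate 3 (-1.58, 0.0536).

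Plaur rose from 1.08, 1.60 and 1.57 to 2.75, 3.14 and 2.62, and the groups were well apart. The difference was 1.42 (SE 0.46), 2.68-fold (limma, adjusted p 0.0311). The call was lost whichever of the 6 arrays was left out, with adjusted p from 0.0566 to 0.0965, and within slide 2 the difference was 1.25 (adjusted p 0.140). Unscaled, the signal of Plaur was 543, 821 and 1002 intensity units in rapamycin and 737, 657 and 664 in BA+rapamycin. These ranges overlap, so its higher scaled values also came with the lower percentile of the challenged arrays. Plau was above the rapamycin values on all 3 BA+rapamycin arrays, at -2.32, -2.06 and -2.17 against -3.58, -2.61 and -3.10, but its difference of 0.92 (SE 0.35) was not called (adjusted p 0.0537). BA+rapamycin replicate 2 was not well above background for it. Unscaled, its signal was 21.5, 44.4 and 39.2 intensity units in rapamycin and 21.9, 17.8 and 24.0 in BA+rapamycin, so the higher scaled values came with the lower percentile of the challenged arrays. The call was gained under 6 of 18 alternatives, and the difference ran from 0.52 with quantile normalization to 1.16.

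With the title date as a random block only Serpine2 (-1.90, adjusted p 0.0140) and Procr (1.33, 0.00553) were called in this contrast. Plaur (1.16, 0.0724) and Tfpi (0.53, 0.0765) were not. The share of all gene names called in that fit is not given, so these losses are not set against it.

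F3 and Plat were not called in this contrast with all arrays in the model. F3 was 4.64, 4.86 and 5.44 in rapamycin and 3.53, 4.34 and 4.38 in BA+rapamycin, without overlap, and the means differed by -0.90 (SE 0.49, limma adjusted p 0.157). F3 was called lower under 2 of 19 alternatives, normexp (-1.28, adjusted p 0.0427) and the fit to these 2 groups alone (-0.90, 0.0419), and was -1.33 (0.0580) with the title date as a random block. Its junction probe gave -0.89 (adjusted p 0.179), with values of 0.50, 0.79 and 1.82 against -0.42, 0.43 and 0.43. Both probes of F3 thus had lower means with the challenge in mice on rapamycin and higher means in mice on vehicle, and neither difference passed the test in that model. Plat was 2.01, 2.06 and 2.04 in BA+rapamycin, the narrowest of all its groups, and 1.38, 1.41 and 2.03 in rapamycin. Thbd differed by 0.30 (interval -0.09 to 0.69).

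**Figure D2:**
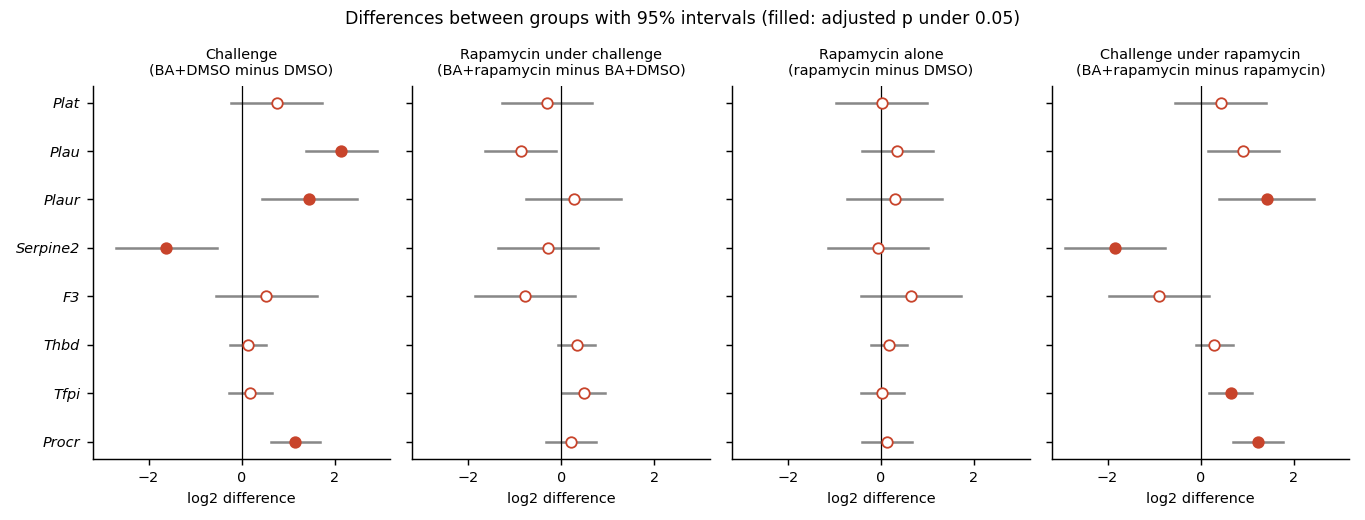
Differences between groups for the 8 tested genes on the log2 scale, with 95% intervals from the limma model and filled points at an adjusted p under 0.05. Plau, Plaur, Serpine2 and Procr are filled for the challenge on vehicle, Plaur, Serpine2, Tfpi and Procr for the challenge under rapamycin, and none for the 2 rapamycin contrasts.

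Rapamycin in challenged mice (BA+rapamycin minus BA+DMSO) called none of the 8 genes in the limma model. Over all gene names 0.3% were called. At an unadjusted p under 0.05 there were 2 of the 8 genes, Plau and Tfpi, against 4105 of all 20026 gene names. Plau was lower on all 3 BA+rapamycin arrays (-2.32, -2.06 and -2.17) than on the BA+DMSO arrays (-1.33, -1.98 and -0.61), but only by a little against replicate 2. The difference was -0.88 (SE 0.35, adjusted p 0.213). With normexp background correction it was -0.22 (adjusted p 0.363).

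BA+DMSO replicate 2 weighed heavily on this contrast. Without it, 4 of the 8 genes were called, and 41.0% of all gene names. Plau (-1.21, adjusted p 0.0168), F3 (-1.33, 0.0303) and Plat (-0.93, 0.0193) were then lower with rapamycin. Tfpi was higher at the probe that stood for it (0.65, 0.0263), while its 2 other probes were called lower (-0.90, 0.00489, and -0.84, 0.00426). The junction probe of F3 gave -1.27 in that fit and was not called (adjusted p 0.0661). Nothing in the labels gives a reason to leave this array out, so these values stand beside the fit with it and do not replace it. The smooth muscle gene Myh11 was 8.17 on this array, against 5.75 and 6.10 on replicates 1 and 3. The macrophage gene Cd68 was 1.93, against 3.84 and 3.53. Des and Lmod1, also smooth muscle genes, lay between replicates 1 and 3. The part of cell types in the values of this array was not tested.

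Procr and Thbd had means close to each other with and without the drug in challenged mice. Procr differed by 0.21 (interval -0.32 to 0.74) and Thbd by 0.33 (interval -0.06 to 0.72). Serpine2 differed by -0.29 and Plaur by 0.27, with SEs of 0.49 and 0.46. When BA+DMSO replicate 2 was left out, Serpine2 differed by -0.79 (adjusted p 0.178) and Plaur by -0.35 (0.374), so the sign of Plaur turned. When replicate 3 was left out instead, Serpine2 differed by 0.40 (adjusted p 0.653), Plaur by 0.71 (0.582) and Plat by 0.09 (0.962), against -0.30 for Plat with all arrays, so the signs of Serpine2 and Plat turned. No sign is therefore settled for these 3 genes. Plat spread by an SD of 1.1 in BA+DMSO and of 0.03 in BA+rapamycin, and the spread of Plaur was 1.11 and 0.27. These differences in spread were not tested.

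**Figure D3:**
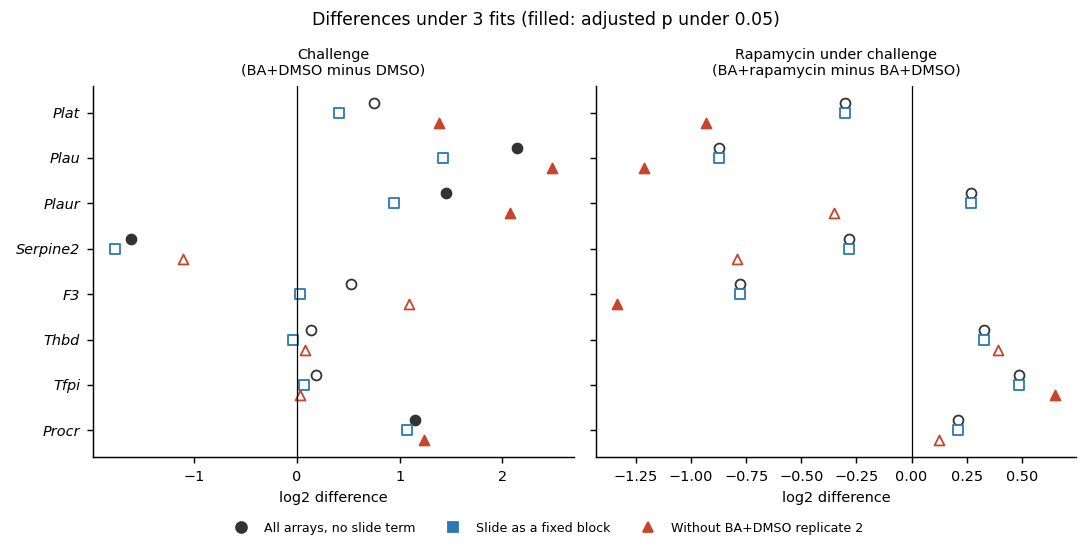
Differences of the 8 tested genes on the log2 scale under the fit with all arrays (circles), with the slide as a fixed block (squares) and without BA+DMSO replicate 2 (triangles), filled at an adjusted p under 0.05. For the challenge no square is filled; for rapamycin under challenge the filled points are the triangles of Plat, Plau, F3 and Tfpi.

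In unchallenged mice rapamycin (rapamycin minus DMSO) called none of the 8 genes, and none of the 8 reached an unadjusted p under 0.05 in the limma model, against 888 of all 20026 gene names. Of all gene names 0.00499% were called. Differences ran from -0.06 for Serpine2 to 0.65 for F3, the latter with an interval of -0.43 to 1.73. On slide 1 alone, which holds the 3 DMSO arrays and 1 rapamycin array, F3 differed by 0.32, with no test because the rapamycin side is a single array. Between the 2 DMSO and 2 rapamycin arrays that share a title date, which lie on different slides, F3 differed by 1.2 (unadjusted p 0.0101) and Plau by 0.74 (unadjusted p 0.0465), neither of them called (adjusted p 0.267 and 0.390). Procr differed by 0.13 (interval -0.40 to 0.66) and Thbd by 0.17 (interval -0.22 to 0.56).

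The interaction, the effect of rapamycin with challenge minus its effect without, called none of the 8 genes and 0% of all gene names. At an unadjusted p under 0.05 there were 1204 gene names in all and 1 of the 8 genes, Plau, at -1.23 (SE 0.49, unadjusted p 0.0296, limma adjusted p 0.737). Under the alternatives this value of Plau ran from -1.56 to -0.28, the latter with normexp background correction (adjusted p 0.636). F3 had -1.43 (SE 0.69) at its standing probe and -1.57 (SE 0.73) at the junction probe, both with an adjusted p of 0.737. With BA+DMSO replicate 2 left out, Plau (-1.56, adjusted p 0.0481) and F3 (-1.99, 0.0498) were called, with 11.2% of all gene names.

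Tfpi showed that probes of 1 gene can differ. Its 3 probes lie on the minus strand of chromosome 2, the 5′ probe at chr2:84284179-84284238, the middle probe at chr2:84281022-84281081 and the 3′ probe at chr2:84273059-84273118. The array files assign the middle probe to one RefSeq transcript of Tfpi and both others to another. The middle probe, which stood for the gene, was 0.44, -0.03 and 0.24 in DMSO, 0.17, 0.16 and 0.41 in rapamycin, 0.38, 0.73 and 0.11 in BA+DMSO and 0.69, 1.16 and 0.83 in BA+rapamycin. Its mean and its top 2 values were highest in challenged mice on rapamycin, and the range of that group overlapped BA+DMSO replicate 2. The challenge under rapamycin raised it by 0.65 (SE 0.21), 1.56-fold (limma, adjusted p 0.0311), while the challenge on vehicle gave 0.19 (adjusted p 0.558). The other probes were not called for the challenge under rapamycin, with 0.25 (adjusted p 0.444) on the 5′ probe and 0.42 (adjusted p 0.292) on the 3′ probe, so the call rests on the middle probe alone. Unscaled, the middle probe read 290, 304 and 447 intensity units in rapamycin and 177, 166 and 192 in BA+rapamycin. Its higher scaled values thus came with the lower percentile of the challenged arrays.

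The 5′ probe had its highest values elsewhere, at -0.13 and -0.11 on BA+DMSO replicates 1 and 3, against -1.11 on replicate 2. It was -0.96, -0.99 and -1.13 in DMSO, -1.34, -1.44 and -1.02 in rapamycin and -1.21, -1.0 and -0.84 in BA+rapamycin. The 3′ probe followed it, at 1.1, -0.12 and 1.37 in BA+DMSO, 0.47, 0.35 and 0.57 in DMSO, 0.04, -0.08 and -0.03 in rapamycin and 0.38, 0.56 and 0.24 in BA+rapamycin. On this probe every rapamycin array was below every DMSO array, by a mean of -0.49 (SE 0.31, limma adjusted p 1.00).

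Rapamycin under challenge thus had opposite signs on these probes. The difference was 0.49 (SE 0.21) on the middle probe, -0.57 (SE 0.26) on the 5′ probe and -0.39 (SE 0.31) on the 3′ probe, none of them called (limma adjusted p 0.234, 0.25 and 0.438). Without BA+DMSO replicate 2 all 3 were called, the middle probe higher (0.65, adjusted p 0.0263) and the 5′ and 3′ probes lower (-0.90, 0.00489, and -0.84, 0.00426). In the same fit the challenge on vehicle was called for the 5′ probe (0.90, adjusted p 0.00410) and the 3′ probe (0.77, 0.00507) but not for the middle probe (0.03, 0.935). The difference between probes was not itself tested. Within slide 2, the challenge under rapamycin gave 0.61 on the middle probe (adjusted p 0.153), and its call was lost without any 1 of the 6 arrays but BA+rapamycin replicate 1 (adjusted p 0.0560 to 0.109).

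**Figure D4:**
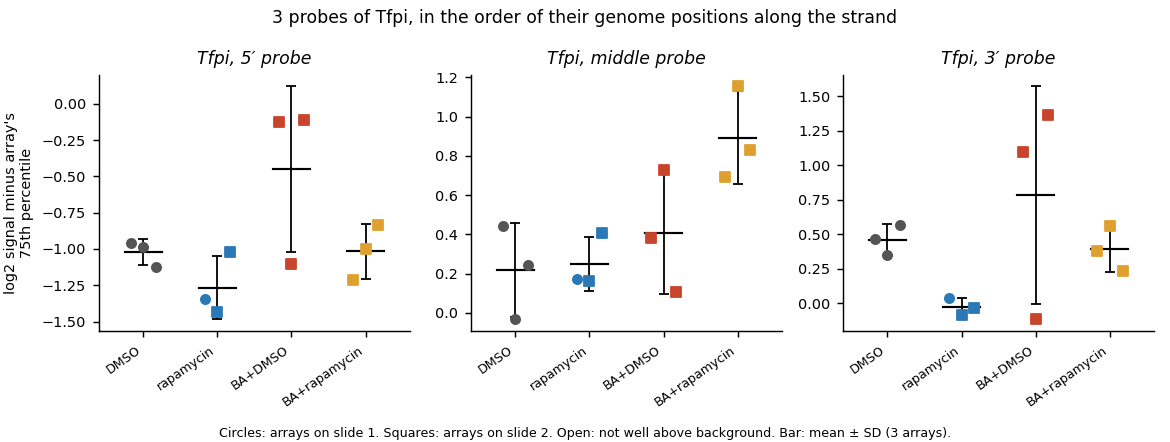
Level of the 3 Tfpi probes on each array, as the log2 processed signal minus the array's 75th percentile, with mean ± SD (n = 3; circles slide 1, squares slide 2). The middle probe has its highest mean in BA+rapamycin (values 0.69 to 1.16), whereas the 5′ and 3′ probes are highest on BA+DMSO replicates 1 and 3.

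The order of the group means is given here for the genes called. Procr was lowest in DMSO (2.40 ± 0.19, mean ± SD, n = 3 here and below), followed by rapamycin (2.54 ± 0.23), BA+DMSO (3.56 ± 0.17) and BA+rapamycin (3.77 ± 0.48). Only the step from rapamycin to BA+DMSO separated the arrays, and its neighbours on both sides overlapped. Serpine2 ran in the reverse direction, from 3.71 ± 0.12 in DMSO and 3.65 ± 0.32 in rapamycin to 2.09 ± 1.24 in BA+DMSO and 1.81 ± 0.46 in BA+rapamycin, with overlap within each of these pairs. Plaur was lowest in DMSO (1.12 ± 0.51), followed by rapamycin (1.42 ± 0.29), BA+DMSO (2.57 ± 1.11) and BA+rapamycin (2.84 ± 0.27). For Plau the order of the challenged groups was the other way round, with -3.45 ± 0.38 in DMSO, -3.10 ± 0.48 in rapamycin, -2.18 ± 0.13 in BA+rapamycin and -1.31 ± 0.68 in BA+DMSO.

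The genes whose pattern over the 12 arrays was most like a member's were taken from 13636 tested probes that were well above background on all arrays and carried a known gene name. For Procr this was Vwf, the von Willebrand factor of endothelial cells and platelets, at a Pearson r of 0.974. That Vwf probe is not the brightest of the gene, and the brightest showed a challenge difference of 0.49 that was not called (limma adjusted p 0.193). For Serpine2 it was Ubxn2a (0.989), for Plau Pemt (0.987), for Plaur Scx (0.960), for Plat Btbd1 (0.967), for F3 Trim35 (0.933), for Thbd Ylpm1 (0.902) and for Tfpi Mpg (0.968). The value for Tfpi2, 0.978 with Cars, rests on signal at background. All of these are the highest of many correlations over the same 12 arrays, which share slides and brightness, and are given as a description.

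The wider pathway was read from a list of 41 other genes of coagulation and fibrinolysis, of which 40 were on the array and 20 passed the filter. The challenge on vehicle called 5 higher and none lower, with a median difference of 0.46, against the 10.3% of all gene names called higher. The challenge under rapamycin also called 5 higher and none lower, with a median of 0.53, against 19.8% of all gene names. The 2 rapamycin contrasts and the interaction called none of the 20, with 7 at an unadjusted p under 0.05 for rapamycin under challenge, 0 for rapamycin alone and 1 for the interaction. Over all 20026 gene names the same threshold was passed by 4105, 888 and 1204. Without BA+DMSO replicate 2, rapamycin under challenge called 10 of the 20, with 4 higher (F5, F7, F9 and Cpb2) and 6 lower (S100a10, Anxa2, Anxa5, Ggcx, Lman1 and Mcfd2), the interaction called none, and the challenge on vehicle called 10 higher. In that fit 41.0% of all gene names were called for rapamycin under challenge and 28.4% for the challenge on vehicle, each in either direction. For F5, F7, F9 and Cpb2 the lowest BA+DMSO value was that of replicate 3, and no fit without replicate 3 is given for them. None of the 3 fibrinogen chains and neither prothrombin nor plasminogen, proteins made mainly by the liver, was tested, because their probes were too dim.

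Among zymogens and cofactors, 7 of 13 were tested, and 2 were called higher with the challenge on vehicle and 5 with the challenge under rapamycin, where the share of all gene names called higher was itself 19.8% against 10.3%. Kng1, which encodes kininogen, had the largest rise in the list in both challenge contrasts of the model without a slide term. Its mean was -3.09 ± 0.32 on the DMSO arrays and -0.48 ± 0.52 on the BA+DMSO arrays, which differ by 2.60 (SE 0.33), 6.07-fold (limma, adjusted p 0.00079), and the difference under rapamycin was 2.94 (adjusted p 0.000241). Within slide 2 it was 2.78 (adjusted p 0.0110), below the uncalled 2.88 of F10 (0.0848). The mouse has a close copy of Kng1, Kng2, and the Kng1 probe was not checked against it. F13a1, the chain of factor XIII that crosslinks fibrin and that macrophages and platelets also make, rose by 1.43 (SE 0.38, adjusted p 0.0252) on vehicle.

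F10, F5 and F7, which act with F3 in the start and spread of coagulation, were called with the challenge in mice on rapamycin and not on vehicle. The interaction was called for none of them (limma adjusted p 0.737 for each). F10 differed by 2.70 (SE 0.80, limma adjusted p 0.0209), F5 by 1.81 (SE 0.43, 0.00817) and F7 by 1.57 (SE 0.50, 0.0288). The F10 probe was bright, with a mean of 6.09 on the DMSO arrays, above the 5.43 of Vwf. Whether it also reads other transcripts was not checked. F9, another zymogen, differed by 0.86 (SE 0.24, 0.0180), but its probe was dim, well above background on 2 of the 3 BA+rapamycin arrays and 2 of the 3 BA+DMSO arrays. On vehicle the same genes were split by array, F10 at 7.89, 8.71 and 4.72 and F7 at -0.33, 0.49 and -1.98 in BA+DMSO, with replicate 3 the lowest. The BA+rapamycin arrays lay at 7.75, 8.68 and 8.43 for F10 and 0.48, 1.01 and 0.61 for F7. F5 was well above background on 1 of the 3 BA+DMSO arrays, so its level on the others is uncertain. Within slide 2, F10, F5, F7 and F9 were not called (adjusted p 0.0848, 0.0624, 0.126 and 0.107). With the slide as a fixed block, F10, F5 and F9 were called (0.0428, 0.0282 and 0.0473) and F7 was not (0.0815).

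The zymogens are known as products of the liver, so liver markers were read beside them. Of 6 hepatocyte markers 2 were tested, Apoa1 and Cps1 were well above background on no array, and Alb on 4 of the 12. The summed scaled level of the 6 was 4.55 to 5.64 on DMSO arrays, 8.27 to 10.3 on rapamycin arrays, 6.43 to 10.1 on BA+DMSO arrays and 4.53 to 6.31 on BA+rapamycin arrays. Ahsg was the largest part of this sum on every array, so the sum and the calls of Ahsg are largely the same measurement. Ahsg was called higher with the challenge on vehicle (0.76, limma adjusted p 0.0485) and lower with the challenge under rapamycin (-1.09, 0.00651). The part of liver RNA in the differences of the zymogens was not tested.

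Of the genes around plasminogen, 5 of 8 on the array were tested and 2 were called with the challenge on vehicle. They were the subunits of a cell-surface complex that binds plasminogen and its activator: Anxa2 rose by 1.06 (SE 0.25, limma adjusted p 0.0158) and S100a10 by 0.91 (SE 0.20, adjusted p 0.0110). Neither was called in mice on rapamycin (0.60, adjusted p 0.0769, and 0.33, adjusted p 0.202), and the interaction was called for neither (-0.46 and -0.59, adjusted p 0.737). Vkorc1, an enzyme of the vitamin K cycle that clotting factors need, rose by 0.67 (adjusted p 0.0244) and was the 1 of 4 genes of its group that was called. With the slide as a fixed block the challenge differences on vehicle were 2.11 for Kng1, 1.22 for F13a1, 0.84 for Anxa2, 0.84 for S100a10 and 0.55 for Vkorc1, none of them called (adjusted p 0.249 to 0.592).

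**Figure D5:**
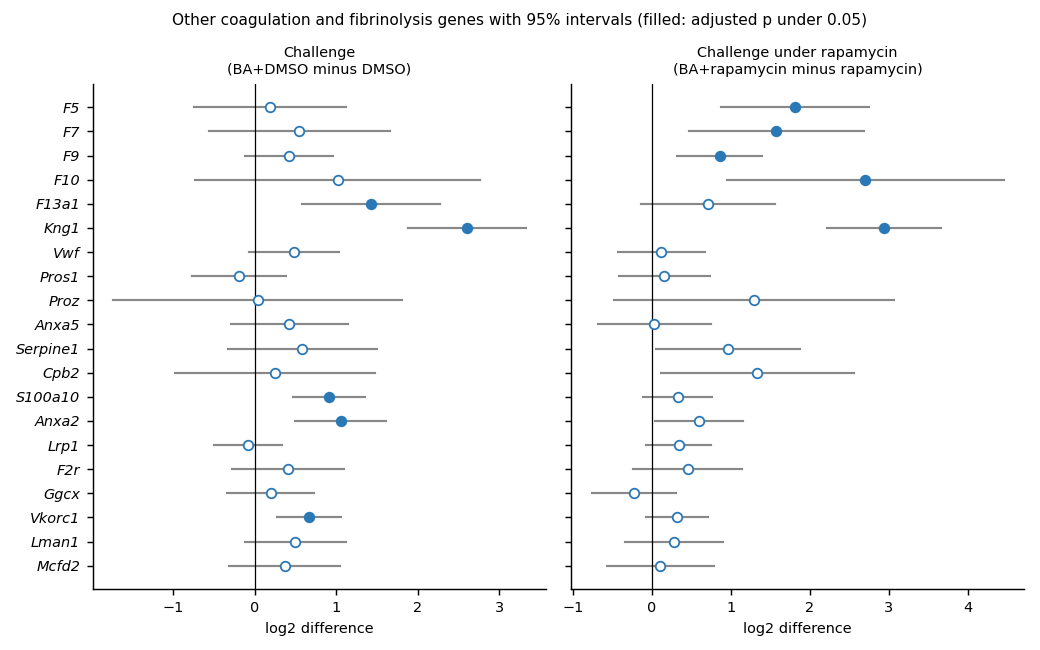
Differences of the 20 tested genes of the wider pathway on the log2 scale with 95% intervals, for the challenge on vehicle (left) and under rapamycin (right), filled at an adjusted p under 0.05. Kng1 is filled in both, F13a1, Anxa2, S100a10 and Vkorc1 on the left, and F5, F7, F9 and F10 on the right.

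Markers of several cell types were also called with the challenge. The summed scaled level of 8 macrophage markers was 24.6 to 45.7 on the DMSO arrays, 40.9 to 54.0 on the rapamycin arrays, 75.9 to 185 on the BA+DMSO arrays and 105 to 109 on the BA+rapamycin arrays, and all 8 were called higher on vehicle and 5 under rapamycin, Cd68 by 2.63 on vehicle (limma adjusted p 0.00232) and Csf1r by 1.64 (0.00269). Macrophages are known to make Plau and Plaur. The sum of 6 mesothelial markers was 0.568 to 3.41, 2.47 to 4.06, 6.82 to 14.8 and 1.55 to 11.9 in the same order of groups, with 5 called higher on vehicle (Msln by 2.83, limma adjusted p 0.0296) and none under rapamycin. Lrrn4 and Upk1b among the 5 were well above background on 1 DMSO array only and entered the test through BA+DMSO, and Upk3b and Krt19 were not well above background on 1 of the 3 DMSO arrays. For Procr and Thbd, the endothelial sum was 72.7 to 82.6, 86.7 to 113, 97.3 to 174 and 136 to 209 in the same order of groups, with 2 of 8 markers called higher on vehicle (Kdr by 1.28 and Tie1 by 0.93). Egfl7 carries most of this sum on every array, so the sum follows that gene. Under rapamycin Kdr and Egfl7 were called higher and Pecam1 and Tek lower. For Serpine2, the sum of 8 smooth muscle markers was 2860 to 3081, 2599 to 3063, 2460 to 4837 and 3485 to 4522. Acta2, Tagln and Cnn1 carry most of this sum on every array. On vehicle only 2 of the 8 differences were positive, Acta2 (0.27) and Tagln (0.45), and the median was -0.58. Lmod1 was called lower on vehicle (-1.91), and the others, Acta2 among them, were not called. Under rapamycin 4 of the 8 were called, Lmod1 (-1.89), Des (-1.79) and Myocd (-0.97) lower and Tagln higher (1.05).

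Of 8 platelet markers 6 were tested, and Gp6 and Tubb1 were well above background on no array. Pf4 was called higher on vehicle (1.46) and not under rapamycin (0.05), where Treml1 was (2.29). Itga2b and Gp9 also passed the threshold under rapamycin, but they were well above background on at most 1 array of each group in that contrast and entered the test through BA+DMSO, so no size is given. The sum of the 8 was 6.41 to 16.2, 9.75 to 11.8, 19.1 to 41.5 and 11.1 to 14.5 in the same order of groups. Pf4 carries most of this sum on every array, so the sum does not show the genes called under rapamycin. Of 8 neutrophil markers 5 were tested and 2 called higher on vehicle (Ly6g by 1.87 and Elane by 0.89) and 2 under rapamycin (Csf3r by 1.31 and Elane by 0.99), and their sum was 207 to 258, 202 to 243, 156 to 602 and 504 to 657. Csf3r carries nearly all of this sum, while S100a8, S100a9 and Ly6g were not called under rapamycin (0.19, 0.25 and 0.55). Of 7 fibroblast markers Col1a1 was called higher on vehicle (0.99), and Col1a1 (1.57) and Pi16 (1.66) were called higher and Clec3b lower (-1.56) under rapamycin. Under rapamycin 3 of the 7 differences were positive, and the median was -0.41. The sum was 564 to 849, 791 to 847, 727 to 1351 and 1252 to 1575, and Dcn, Col1a1 and Pi16 carry most of it. None of 5 tested adipocyte markers was called in either challenge contrast, and 0 and 2 of them had an unadjusted p under 0.05 on vehicle and under rapamycin. The part of these cell types in the differences of the 9 genes was not tested.

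Promoter sequences were at hand for 6 of the 9 genes, in 9 records from RefSeq (GRCm38.p6). The 250 bases before each start were searched on both strands for the AP-1 motif TGANTCA, since AP-1 is known to act on Plaur and F3. It was found in Plaur, Procr, F3 and 1 of the 3 records of Tfpi2, and 6.75% of the 32851 promoters in the table held it. That share counts single records, while a gene here counts with any of its records, so enrichment was not tested. For Plaur and F3 the finding is not independent of the choice of motif. The first base of the motif lay 69 bases before the start in Plaur, 154 in Procr and 77 in Tfpi2, and F3 had 2 copies, 146 and 135 bases before. Of the genes called in either challenge contrast, Plaur and Procr held it, Serpine2 and Tfpi did not, and for Plau no promoter record was at hand. The stretches around it are shown on the gene's strand with the motif in capitals. They lie at chr7:24462388-24462447 (Plaur, plus), chr2:155751037-155751096 (Procr, plus), chr3:121723365-121723435 (F3, plus) and chr6:3968419-3968478 (Tfpi2, minus).
Plaur: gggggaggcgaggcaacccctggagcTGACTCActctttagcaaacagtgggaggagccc
Procr: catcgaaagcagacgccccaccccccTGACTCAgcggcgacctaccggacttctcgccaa
F3: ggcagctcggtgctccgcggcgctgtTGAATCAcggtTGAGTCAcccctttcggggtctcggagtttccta
Tfpi2: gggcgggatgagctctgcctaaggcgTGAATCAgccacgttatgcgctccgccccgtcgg

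Of 10 motifs searched in all, the GC box GGGCGG was in Plaur, Serpine2, F3, Tfpi and Tfpi2 (32.7% of promoters), with 6 copies in Serpine2. The E box CANNTG was in Serpine2, Tfpi, Tfpi2 and Procr (66.2%), and CACCC in F3, Tfpi, Tfpi2 and Procr (52.0%). TATAAA (12.4%), AGATAA (9.99%) and AACAAT (9.42%) were in Tfpi alone, and GGAAAT (15.4%) in Tfpi and Tfpi2. TGACGTCA (1.55%) and TTCCNGGAA (0.913%) were in none. The GC box can overlap other GC-rich motifs, the shorter motifs occur often by their length alone, and these matches are letters in a window, not measured sites.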

How the data were processed

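Total RNA of the aorta was hybridised to 1-colour Agilent arrays. The deposited scanner files hold background-subtracted processed signal as intensity, with flags for background and saturation that the authors' Feature Extraction software wrote. The file headers give version 10.7.1.1 and the submitters' processing notes 9.5.1.1. Probe positions are on mm9, per the file headers. The authors' value table holds quantile-normalized intensity and served as an alternative. Control spots and outlier flags were left out, and no spot was saturated. Here log2 signal minus the array's 75th percentile was averaged over spots of a probe, and 1 limma model (limma 3.58.1, R 4.3.3) with 4 group means gave 5 contrasts, two-sided. The code was tested on simulated data. Groups came from the labels, and replicates were numbered in order of deposition.

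The members, the gene lists, the motifs and the sequences shown were chosen with earlier results of these data known. All members were named, as were the 4 largest called differences of the wider pathway in each challenge contrast, and from each marker list the 2 genes with the highest mean and the called gene with the largest difference could be named. Other pathway and marker genes were named after their values were seen. The alternatives were other scalings, background corrections, filters, slide and title-date terms, samples and thresholds.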

Additional observations from a re-analysis of the deposited data

How the results depend on the processing

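Among the 8 tested genes, the direction of no called difference turned under any alternative run. Counts of the 8 tested genes called moved as follows, and without the share of all gene names a lower count shows no loss particular to them. That share is given above for the slide as a fixed block (challenge on vehicle), slide 2 alone and the fit without BA+DMSO replicate 2. For the challenge on vehicle the count of 4 became 0 with the slide as a fixed block, 2 with only the arrays of the groups compared, and 1 (Plau) by the study's rule of a fold over 4 and an unadjusted p under 0.01. It was 2 to 4 when single arrays were left out. For the challenge under rapamycin the count of 4 became 2 with the slide as a fixed block, 2 with the title date as a random block (an alternative chosen after seeing the data), 0 by the study's rule and 1 within slide 2, and it was 1 to 3 when single arrays were left out. For rapamycin under challenge it was 0 to 4 when single arrays were left out, and for the interaction 0 to 2, in each case above 0 only without BA+DMSO replicate 2. For rapamycin alone it was 0 under every alternative run, among them the fit within slide 1, which has a single rapamycin array and is no test. Of 787 values of single genes under alternatives, 676 kept direction and side of the threshold, 48 lost a call, 16 gained one and 47 uncalled values changed sign. The percentile over detected probes moved the median of all genes by 0.14 for rapamycin under challenge, 0.18 for the challenge under rapamycin and 0.12 for the interaction, and normexp moved it by 0.11 for the challenge under rapamycin. The titles of 2 DMSO and 2 rapamycin arrays share both a date and the number after it. So do those of DMSO replicate 1 and BA+rapamycin replicate 3, which no contrast of 2 groups compares. A replicate block over the 2 pairs of DMSO and rapamycin arrays, chosen after seeing the data, called 0 of the 8 genes for rapamycin alone. Deviations from the group means correlated at -0.07 within these 2 pairs. For the other contrasts of 2 groups no paired analysis was possible, because no title shares both between the groups compared. The interaction uses all groups, and no paired analysis was run for it. With 3 arrays a group, and Plau and Tfpi2 near or at background, small differences were not detectable.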
